A study of Mus musculus with 8 samples.

Results

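The rows examined here are 36 genes of the sarcomere and of muscle metabolism, taken by symbol from a count table of 54532 Ensembl genes. Each of the 36 symbols matched exactly 1 row. The table comes from poly(A) RNA of L3-L5 dorsal root ganglia of C57BL/6 mice, which hold the cell bodies of sensory neurons and no muscle fibres of their own. The mice of both groups had osteoarthritis induced by monosodium iodoacetate injected into a joint. The MIA group (4 libraries, numbered 1, 2, 4 and 5) received nothing further, and the MIA_Acu group (4 libraries, numbered 1, 2, 3 and 5) was given manual acupuncture at the point ST36 every day for 7 days. Sex, age and the number of animals behind each library are not given in the labels, so biological and technical spread between libraries cannot be told apart. The design text counts 3 mice in a group where the table has 4 columns, so n = 4 below means libraries and may not mean mice. No library from uninjured or sham-needled mice was analysed here. The labels do not say whether muscle was trimmed from the ganglia, and the source of the muscle RNA was not tested. In bulk RNA, fewer fibres and less RNA per fibre cannot be told apart.

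Total counts were 32892804 to 40627041 per library. The MIA library numbered 4 and the MIA_Acu library numbered 3 match no sample title of their group and were used under the group in their column name. Values below are CPM, the counts divided by library size after scaling by TMM, a normalization that assumes most genes do not change. Errors are SD over 4 libraries unless stated.

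The sarcomere is built from thick filaments of myosin that pull on thin filaments of actin, with troponin and tropomyosin on the thin filament as the calcium switch. Titin, nebulin and the Z-disc proteins hold both in register. Fast and slow fibres use different genes for the same parts, so isoforms describe the kind of fibre where the RNA came from fibres.

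Muscle transcripts were present in each library at very unequal levels. Summed over the 36 genes, the level was 6180 CPM in MIA 1, 114 in MIA 2, 4711 in MIA 4 and 1397 in MIA 5. In the MIA_Acu libraries it was 3774 in number 1, 775.6 in number 2, 11240 in number 3 and 7680 in number 5. MIA 2 was the lowest of the 8 libraries and MIA_Acu 3 the highest, 98.3 times above it, and the groups overlapped. In MIA_Acu 3 the 36 genes took 1.15% of all counts (95% Wilson interval 1.146 to 1.153), and in MIA 2 0.0115% (0.0112 to 0.0118). These intervals cover counting error only. The mean was 3100 ± 2822 CPM in MIA and 5867 ± 4563 in MIA_Acu, a ratio of 1.89, and the difference between these means was smaller than either SD.

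**Figure D1:**
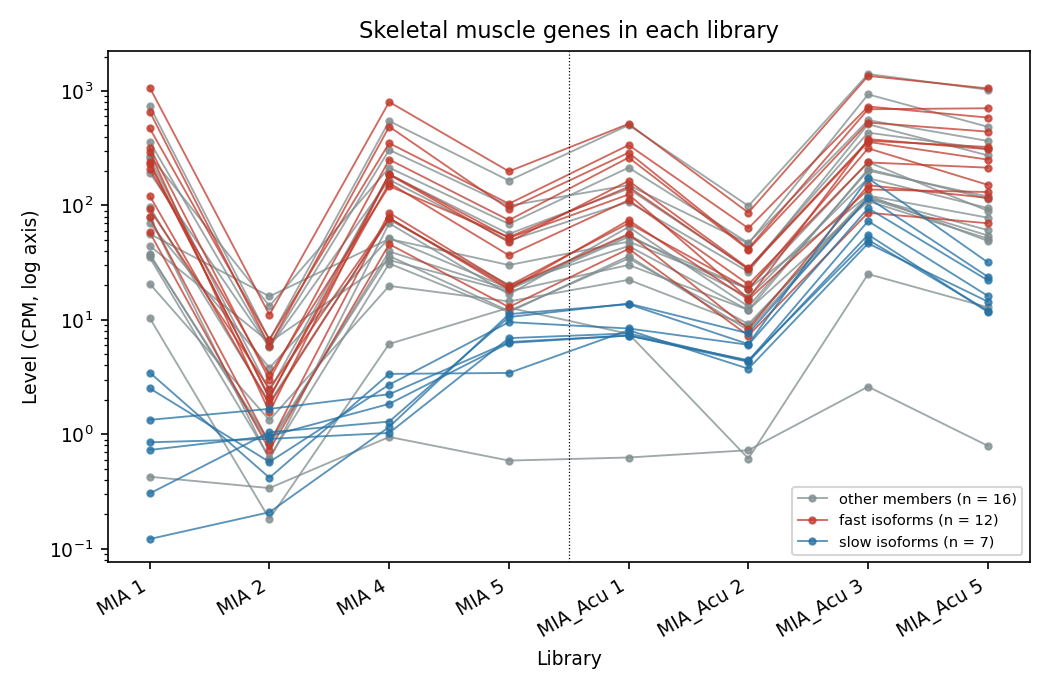
Level of each of the 35 tested genes in each library, in CPM on a log axis, with fast isoforms in red, slow isoforms in blue and the others in grey; the dotted line separates the groups. Most lines fall together in MIA 2 and peak in MIA_Acu 3, while the slow isoforms are also low in MIA 1 and MIA 4.

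The genes varied far more between libraries than ganglion transcripts in general. The SD of log2 CPM over the 8 libraries had a median of 2.27 over the 35 genes that passed the filter on low counts, against 0.24 over all 18971 tested genes. Of the 100 most variable tested genes, 27 were muscle genes of this set, and 33 of the 35 were among the top 500. The highest library was MIA_Acu 3 for 34 of the 35 and MIA_Acu 5 for Atp2a1. The lowest was MIA 2 for 30 and MIA 1 for 5, all of them slow isoforms. From lowest to highest library the genes spanned between 7.59-fold (Ldb3) and 1424-fold (Myh7), with a median of 118.

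Thick filament genes gave the clearest account of fibre type. Myh4, the heavy chain of the fastest fibres in mice, was at 1074 CPM in MIA 1, 11.1 in MIA 2, 803 in MIA 4 and 199 in MIA 5. In MIA_Acu it was at 517, 86.5, 1357 and 1053 CPM in the libraries numbered 1, 2, 3 and 5. The highest MIA library lay above 3 of the 4 MIA_Acu libraries. Myh4 differed by 0.53 on the log2 scale (SE 1.07, edgeR quasi-likelihood test, adjusted p = 0.813).

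Myh7, the heavy chain of slow fibres and of the heart ventricle, had counts of 4, 8, 44 and 457 in MIA 1, 2, 4 and 5. In MIA_Acu 1, 2, 3 and 5 its counts were 481, 220, 6374 and 1163. MIA 1 and MIA 4 were thus rich in Myh4 and nearly without Myh7, whereas MIA 5, with less Myh4, had 11.2 CPM of Myh7 against 0.122 in MIA 1 and 1.16 in MIA 4. In CPM its means were 3.18 ± 5.39 in MIA and 56.2 ± 78.8 in MIA_Acu, and MIA 5 lay above MIA_Acu 2.

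Set per kilobase of transcript, so that genes can be compared, Myh4 made up 61.3% to 79.2% of the 5 heavy chains measured. Myh1, of fast fibres of intermediate type, gave 11.1% to 20.2%. Myh2, of the more oxidative fast fibres, gave 5.40% in MIA 1 and up to 14.5% in MIA_Acu 2. Myh7 ran from 0.00813% in MIA 1 to 7.55% in MIA_Acu 3. The order Myh4, Myh1, Myh2 held in 7 libraries and Myh1 and Myh2 changed places in MIA_Acu 2. Reads of these genes are partly interchangeable. Of the 50-base words in their transcripts, 26.7% of Myh1, 26.9% of Myh2 and 18.9% of Myh4 recur in another heavy chain gene, and 22.2% of Myh7 in Myh6, the atrial chain. How the authors' counter shared such reads is not given in the sources used here.

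Myh3, the embryonic chain that regenerating fibres use again, was detected in each library but stayed low, with counts of 14, 13, 36 and 24 in MIA and 22, 26, 96 and 29 in MIA_Acu. It was lowest in MIA 2 like the fast chains, but spanned only 7.70-fold over the libraries. Its level per kilobase was at most 0.433 CPM, in MIA_Acu 3, against 226 for Myh4 there.

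The light chains and myosin binding proteins completed the thick filament. Mylpf, the fast regulatory light chain, was at 240, 2.06, 186 and 47.9 CPM in MIA and at 164, 28.2, 368 and 324 CPM in MIA_Acu. Its slow counterpart Myl2 was at 2.52, 0.573, 2.72 and 9.56 CPM and at 8.41, 6.06, 94.6 and 22.2 CPM. The groups of Mylpf were interleaved, and those of Myl2 overlapped through MIA 5. Myl1 (fast) and Myl3 (slow), the essential light chains, had log2 fold changes of 0.97 (SE 1.04) and 3.36 (SE 1.02). Mybpc2 and Mybpc1, the fast and slow forms of myosin binding protein C, did not separate in this way, with 0.59 (SE 1.02) and 1.26 (SE 1.05).

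On the thin filament, Acta1, the actin of adult skeletal muscle, had the highest level per kilobase of the 36 genes, 389 ± 336 (SD, n = 8 libraries). It was at 740, 6.70, 546 and 165 CPM in MIA and at 504, 99.0, 1409 and 1026 CPM in MIA_Acu. MIA 1 lay below MIA_Acu 3 and MIA_Acu 5 and above the other MIA_Acu libraries, and the adjusted p of edgeR was 0.597. Actc1, the cardiac actin that immature fibres also use, was at 10.4, 0.182, 6.17 and 12.8 CPM in MIA and at 7.56, 0.615, 25.1 and 12.9 CPM in MIA_Acu. Its level in MIA_Acu 2 was nearer to MIA 2 than to the other libraries. Nebulin (Neb), the ruler of the thin filament, and tropomyosin 2 (Tpm2), which blocks myosin at rest, had log2 fold changes of 1.15 (SE 0.99) and 1.06 (SE 0.86).

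The troponins repeated the pattern of the heavy chains. Tnnt3, the fast troponin T, which ties troponin to tropomyosin, had counts of 15534, 258, 13288 and 4213 in MIA and 11825, 2262, 26941 and 21437 in MIA_Acu. Tnnt1, the slow form, had 10, 40, 49 and 431 in MIA and 487, 273, 4290 and 871 in MIA_Acu. MIA 1 was thus the lowest of the 8 libraries in Tnnt1 while above 5 of them in Tnnt3. Tnni2 and Tnni1, the fast and slow inhibitory subunits, had log2 fold changes of 0.93 (SE 0.97) and 2.65 (SE 0.80), and Tnnc1, the slow calcium sensor, of 2.99 (SE 0.92).

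Tnnc2, the fast calcium sensor, was all but missing. It had at most 3 counts in a library (MIA_Acu 3) and 0 in MIA 5, MIA_Acu 1 and MIA_Acu 5, where 0 counts allow up to 0.0738, 0.0822 and 0.0815 CPM. Tnnt3, its partner in the fast troponin complex, was at 103.5, 337 and 586 CPM in those 3 libraries. In the GENCODE M21 annotation, which is of another build than the counts, 84.6% of the exonic bases of Tnnc2 also lie in exons of other genes, mostly Ube2c on the opposite strand. Ube2c itself had 38 to 269 counts. The effect of this overlap on the counts was not tested. The next highest such share was 33.6%, for Mb, and 22 of the 36 genes had none.

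Upstream sequence is shown for 4 genes of unlike fibre type that peaked in the same library: Acta1 of all fibres, Myh4 of fast fibres, and Tnnt1 and Myoz2 of slow fibres. Each line gives the 150 bases before the RefSeq gene start in build GRCm38.p6, at chr8:123894776-123894925 (minus strand), chr11:67237662-67237811 (plus), chr7:4515976-4516125 (minus) and chr3:123034988-123035137 (minus). Capitals mark matches to TATAAA on the gene's strand and, on both strands, to CAGCTG, a form bound by the MyoD family, to the CArG box of serum response factor and to the MEF2 site.
Acta1: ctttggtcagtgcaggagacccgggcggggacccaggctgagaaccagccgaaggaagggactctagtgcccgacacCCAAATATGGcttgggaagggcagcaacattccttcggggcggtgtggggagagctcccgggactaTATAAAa
Myh4: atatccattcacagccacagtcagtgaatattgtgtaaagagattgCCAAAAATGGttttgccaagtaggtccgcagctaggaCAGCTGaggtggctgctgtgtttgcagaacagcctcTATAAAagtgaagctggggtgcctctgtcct
Tnnt1: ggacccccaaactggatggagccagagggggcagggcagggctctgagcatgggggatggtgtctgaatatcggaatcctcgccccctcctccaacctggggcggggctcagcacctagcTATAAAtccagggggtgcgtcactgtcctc
Myoz2: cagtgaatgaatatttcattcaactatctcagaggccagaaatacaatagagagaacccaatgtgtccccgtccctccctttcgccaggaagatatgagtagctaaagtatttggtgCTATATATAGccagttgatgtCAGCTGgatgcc
In these windows no match overlapped another.

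Promoter windows from 250 bases before to 50 after the start were at hand for 29 of the 36 genes. Of these genes 14 (48.3%) held CAGCTG, against 18.3% of all 27025 genes with a window. The CArG box was in 6 (20.7% against 1.81%), TATAAA in 7 (24.1% against 9.77%) and the MEF2 site in 2 (6.90% against 0.636%). Of the fast isoforms 5 of 9 held CAGCTG, and of the slow 3 of 7. A match is a description of the letters and not a site shown to be bound.

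The 10 genes of the Z-disc, of titin and of the M-band were each lowest in MIA 2 and highest in MIA_Acu 3, but differed in between. Titin (Ttn), the molecular spring, was at 361, 5.87, 306 and 99.3 CPM in MIA and at 150, 46.5, 935 and 487 CPM in MIA_Acu. For Actn3, the fast alpha-actinin that anchors actin, the log2 fold change was 0.45 (SE 1.04), and for Actn2, the form of all fibres, 1.85 (SE 0.85). Myot and Tcap, which bind alpha-actinin and titin, had 1.5 (SE 0.95) and 1.31 (SE 0.92). Myoz1, which tethers calcineurin in fast fibres, had 0.80 (SE 0.97).

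Myoz2, its slow counterpart, was at 3.47, 0.417, 3.37 and 3.44 CPM in MIA and at 8.13, 3.74, 46.6 and 14.4 CPM in MIA_Acu. Of the 35 tested genes it was the 1 whose groups did not overlap, beside 10.8% of all tested genes, and MIA_Acu 2 lay close above MIA 1.

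In MIA 2 the 36 genes had few counts each. Ldb3, a PDZ and LIM protein of the Z-disc, was at 16.1 CPM there with 616 counts, more than any other of the 36 genes. Tpm2 had 508 counts, Myh4 425, Tnnt3 258, Acta1 257 and Myom1, of the M-band, 245. Desmin (Des), the intermediate filament that smooth muscle and pericytes also make, had 146 counts. Ldb3 and Myom1 also had the smallest SD of log2 CPM after Myh3, at 1.0 and 1.28.

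The 5 genes of energy and calcium handling were each lowest in MIA 2. Muscle creatine kinase (Ckm) was at 261, 2.40, 187 and 56.3 CPM in MIA and at 140, 27.9, 433 and 311 CPM in MIA_Acu. The calcium pump Atp2a1 of fast fibres was at 662, 5.89, 489 and 93.4 CPM and at 289, 41.9, 694 and 707 CPM. Casq1, the calcium store protein, and Ryr1, the release channel, had log2 fold changes of 0.91 (SE 0.91) and 0.97 (SE 1.0). Myoglobin (Mb), the oxygen store of oxidative fibres, was at 37.6, 0.808, 39.6 and 18.4 CPM in MIA and at 53.1, 18.8, 239 and 89.8 CPM in MIA_Acu. Its log2 fold change of 2.06 (SE 0.95) was the highest outside the slow isoforms.

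Fast and slow isoforms did not move in step across libraries. All 12 tested fast isoforms were higher in MIA 1 than in MIA 5, by a median of 5.0-fold. Of the 7 slow isoforms 6 were lower, and the median ratio was 0.123. MIA 4 against MIA 5 gave 3.94 and 0.284. MIA_Acu 3 exceeded MIA_Acu 5 by a median of 1.23-fold in the fast isoforms and by 4.51-fold in the slow ones. These ratios each compare single libraries and have no replicate check.

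**Figure D2:**
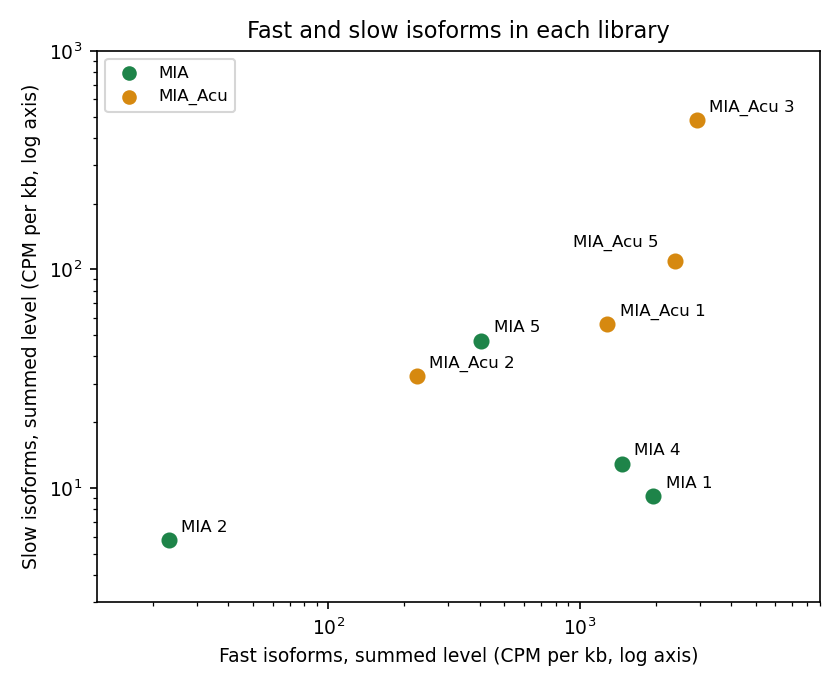
Summed level of the 13 fast isoforms against that of the 7 slow isoforms in each library, both in CPM per kb on log axes, with MIA in green and MIA_Acu in orange. MIA 1 and MIA 4 sit far to the right at 9.17 and 12.9 on the slow axis, below MIA 5 at 47.2 with less of the fast isoforms.

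Per kilobase, slow isoforms were 0.466% of fast plus slow in MIA 1, 19.96% in MIA 2, 0.874% in MIA 4 and 10.4% in MIA 5. In MIA_Acu they were 4.19%, 12.7%, 14.2% and 4.36% in the libraries numbered 1, 2, 3 and 5. Means were 7.93% ± 9.25 and 8.85% ± 5.32, a difference well within the spread of either group. The share sets 13 fast against 7 slow isoforms and is not a proportion of fibres. It counts Tnnc1 although its fast partner Tnnc2 was near 0. It also counts Atp2a1, Casq1, Actn3 and Mybpc2, which have no partner in the slow set. The share in MIA 2 rests on few reads, 222 slow and 1599 fast counts, which as a plain share of counts is 12.2% (95% Wilson interval 10.8 to 13.8). In MIA 1 the plain share was 0.242% (0.216 to 0.270). Tnnt1, Tnni1, Tnnc1, Myl3 and Myh7 had 40, 64, 37, 35 and 8 counts in MIA 2. In MIA 1, with far more of the fast isoforms, they had only 10, 44, 24, 28 and 4. Myl2 and Myoz2 had fewer in MIA 2, 22 and 16 against 83 and 114. Whether slow isoform counts this low came from fibres was not tested. Leaving out MIA 1, MIA 4, MIA_Acu 2 or MIA_Acu 3 turned the sign of the difference in means.

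Of 8 isoform pairs, 6 gave the following shares. The slow share of troponin T ran from 0.0655% in MIA 1 to 14.0% in MIA_Acu 3, that of troponin I from 0.429% in MIA 1 to 25.2% in MIA 2, and that of the regulatory light chain from 0.897% in MIA 1 to 19.4% in MIA 2. Myozenin had the most slow isoform of the 6 pairs plotted, 6.10% to 38.4%. MIA 1 and MIA 4 were the lowest libraries in each of these 6 pairs. Myosin binding protein C differed, with a Mybpc1 share of 23.2% in MIA 2, the lowest, 37.6% in MIA 1, 44.4% in MIA 5, 45.5% in MIA 4 and 48.6% to 59.1% in MIA_Acu. For troponin C no share is given, since Tnnc2 was near 0 throughout.

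**Figure D3:**
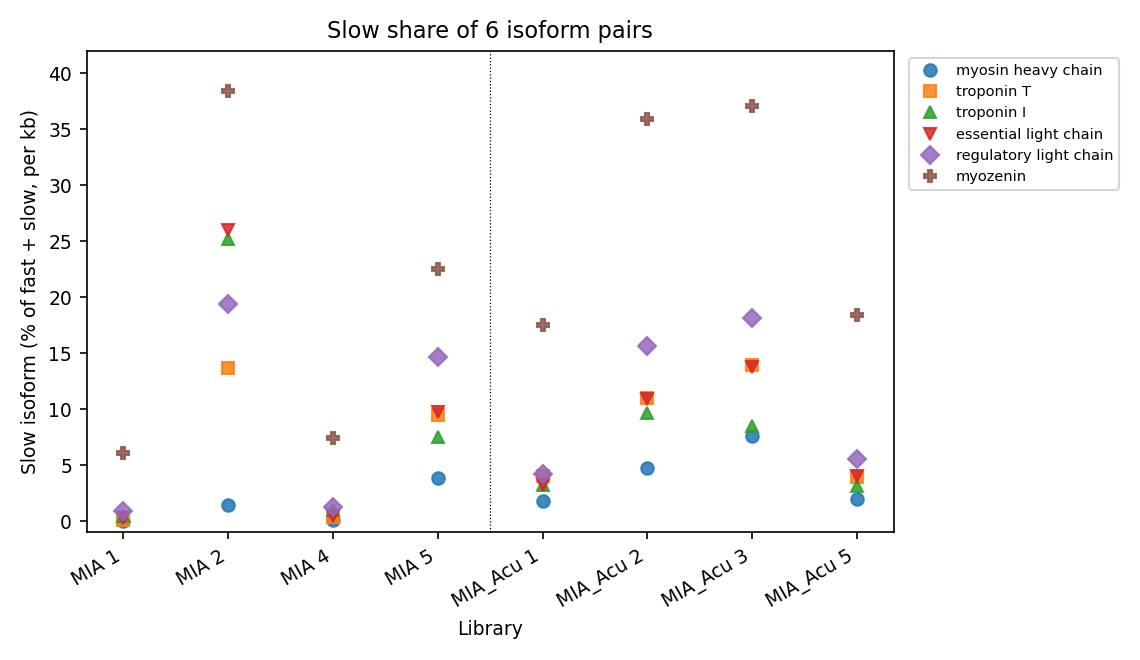
Slow isoform as a percentage of fast plus slow, per kb, in each library for 6 isoform pairs, each with its own marker; the dotted line separates the groups. All 6 pairs are lowest in MIA 1 and MIA 4, and MIA 2, which has few muscle reads, is high in all pairs except the heavy chain.

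None of the 35 tested genes was called between the groups by edgeR (adjusted p under 0.05), beside 0% of the 18971 genes tested. Over all genes, 4137 had an unadjusted p under 0.05. Unadjusted p under 0.05 was reached by 7 of the 35, all higher in MIA_Acu, beside 11.2% of all tested genes higher at that level. The 7 were the slow isoforms Myh7, Tnnt1, Myl3, Myl2, Tnnc1, Myoz2 and Tnni1, with log2 fold changes of 2.65 to 4.12 and adjusted p of 0.12 to 0.143. None of the 12 fast isoforms reached it. Mybpc1, named the slow form of its protein, was not counted in the slow set here, and its unadjusted p was 0.258. All 35 had a positive log2 fold change, with a median of 1.06 against 0.02 over all tested genes, and the medians were 0.84 for fast and 3.08 for slow isoforms. A difference in response between fast and slow isoforms was not tested. The 35 genes come from the same 8 libraries and are not independent.

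DESeq2 on the same libraries called the same 7 slow isoforms (adjusted p 0.0258 to 0.0465), beside 9.24% of all genes and 4.43% called higher. Limma voom called 0, beside 0% of all genes, with 5 slow isoforms at an unadjusted p under 0.05 beside 11.2% higher at that level. Without MIA_Acu 3, the slow isoforms had a median log2 fold change of 1.71 with 5 of 7 at an unadjusted p under 0.05, beside 11.7% of all genes higher. In the 6 libraries that match a sample title, edgeR called 0 of the 35 beside 10.4% of all genes, and 1 slow isoform (Myoz2) had an unadjusted p under 0.05, beside 14.5% of all genes higher. With the groups of the 2 unmatched libraries exchanged, all 7 slow isoforms and 29 of the 35 genes had negative log2 fold changes. Without MIA 2 and MIA_Acu 3, an alternative added after the data were seen, 24 were positive and 11 negative, and none was called by edgeR, beside 0% of all genes. The ratio of summed levels was -0.0068 on the log2 scale against 0.92 with all libraries. All 7 slow isoforms stayed positive there, with a median of 1.38. Of these, 2 had an unadjusted p under 0.05 (edgeR), beside 9.71% of all genes higher. The fast isoforms had a median of 0.04, with 7 of 12 positive.

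**Figure D4:**
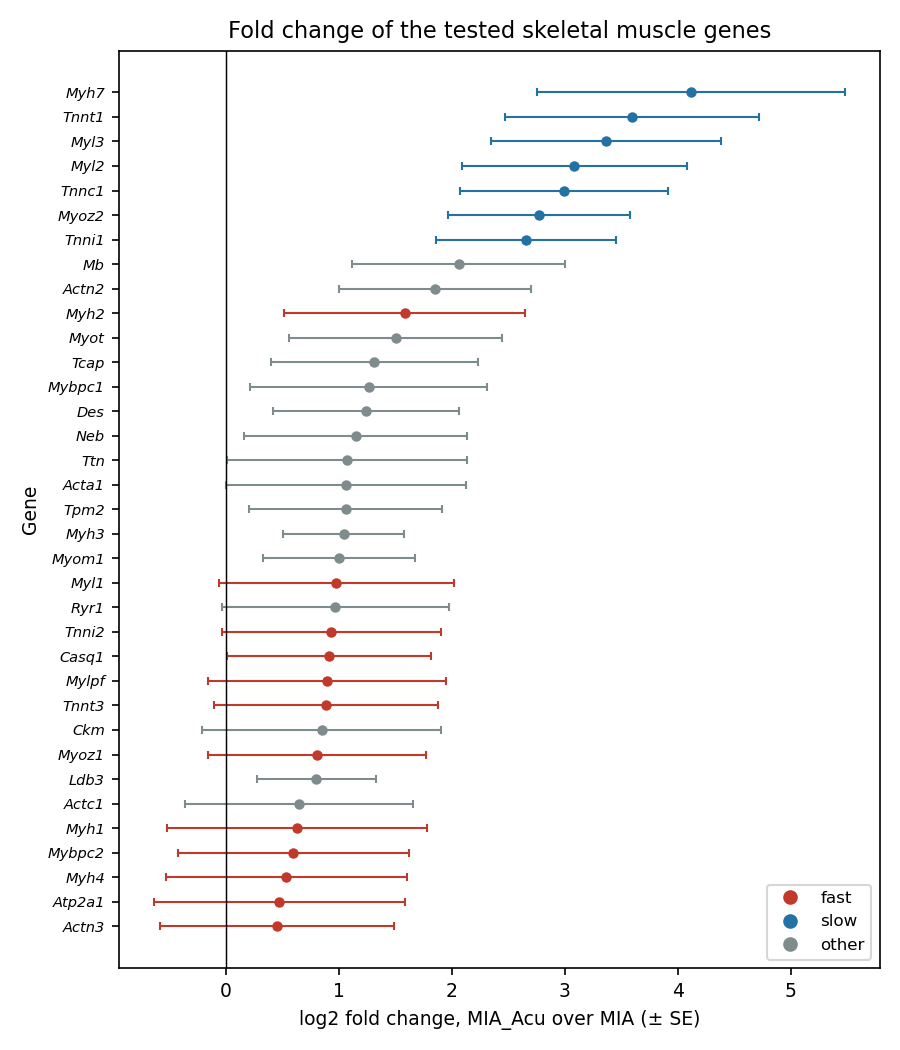
Log2 fold change of MIA_Acu over MIA with its SE for the 35 tested genes, ordered by size, with fast isoforms in red, slow in blue and others in grey. The 7 slow isoforms lead at 2.65 to 4.12, and many error bars of fast isoforms cross 0.

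Most other genes of the muscle fibre, from lists drawn up alongside the 36, moved with them. Exceptions with a small SD of log2 CPM included Cacnb1 (0.13), Myh8 (0.28), Pfkm (0.28), Phka1 (0.32) and Fabp3 (0.52). Of 23 further sarcomere genes, 21 were highest in MIA_Acu 3 and 19 lowest in MIA 2. Summed, they ran from 39.5 CPM in MIA 2 to 1156 in MIA_Acu 3. None was called, beside 0% of all genes, and 3 of 23 had an unadjusted p under 0.05, all higher, beside 11.2% of all genes higher, among them Csrp3 and Myom3, both proteins of the sarcomere's structural lattice, with log2 fold changes of 2.60 (SE 0.82) and 2.23 (SE 0.80). Excitation-contraction genes summed to 139 CPM in MIA 2 and 936 in MIA_Acu 3, and muscle metabolism genes to 346 and 1620. Most of these sums in MIA 2 came from a few genes, with Cacnb1 at 54.4 CPM, Pvalb at 58.2 and Pfkm at 245. None of their 13 and 13 tested members was called. The smallest p-values were those of Casq2 and Cacnb1 in the first list (adjusted p = 0.141 and 0.206, edgeR) and of Cox7a1 and Car3 in the second (0.248 and 0.285). Cacnb1 was lower in MIA_Acu, with a log2 fold change of -0.18 (SE 0.074), and the others were higher.

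Pvalb, a calcium buffer that fast fibres share with proprioceptive neurons, was at 341, 58.2, 271 and 111 CPM in MIA and at 271, 77.9, 396 and 397 CPM in MIA_Acu. Its order of libraries was close to that of the fast isoforms, with MIA 2 lowest and MIA_Acu 2 next. Neuronal and fibre transcripts of Pvalb cannot be told apart here.

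The summed levels of neuromuscular junction genes and of myogenic genes had narrower ranges than that of the muscle genes. The 10 junction genes summed to 32.0 to 48.0 CPM in MIA and 45.5 to 57.2 in MIA_Acu. Lrp4 was the largest part of that sum, at 10.5 to 22.8 CPM. Dok7 stayed between 4.49 and 6.71 CPM and Musk between 4.10 and 5.63, and Chrne was at most 0.489 CPM. Whether the RNA of these genes came from fibres was not tested. Chrna1, the receptor subunit of the fibre's endplate, stayed between 0.903 and 2.01 CPM, and Chrnd and Chrng had at most 10 counts in each library. Chrnb1 and Rapsn, with the smallest p of that list, had log2 fold changes of 0.52 (SE 0.18) and 0.69 (SE 0.26, adjusted p = 0.154 and 0.169, edgeR). The 8 stem cell and myogenic genes summed to 7.46 to 18.2 CPM, most of it from Cdh15, a cadherin of myogenic cells, at 5.17 to 7.64 CPM. Single genes of that list did share the extremes of the muscle genes. Myf6, the myogenic factor of mature fibres, was at 2.16, 0, 2.0 and 1.18 CPM in MIA and at 2.65, 0.335, 6.55 and 4.65 CPM in MIA_Acu, and Myod1 ran from 0 in MIA 2 to 1.36 CPM in MIA_Acu 3.

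The summed level of the cardiac markers had a narrow range too. The 8 markers summed to 22.1 to 24.4 CPM in MIA and 21.8 to 33.3 in MIA_Acu, most of it from Myh6 and from Nppb, at 4.29 to 8.13 CPM. Nppa, Mybpc3 and Myl7 had at most 10 counts in each library. The genes of that list with the smallest p were Tnnt2 and Myh6 (adjusted p = 0.408 and 0.466, edgeR). Tnnt2 was not narrow in range, from 0 in MIA 1 to 1.30 CPM in MIA_Acu 3, with an SD of log2 CPM of 1.55. Myh6, which shares sequence with Myh7, ran only from 10.2 CPM in MIA_Acu 1 to 22.5 in MIA_Acu 2. In MIA_Acu 3, where Myh7, Myl2 and Tnnc1 were highest, Myh6 was at 16.3 CPM, and Tnnt2 and the atrial light chain gene Myl4 (2.85 CPM) were also at their highest. The part of heart muscle in these values was not tested.

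Markers of other tissues were unequal between the libraries too. The 9 bone and cartilage markers summed to 37.0 to 71.5 CPM in MIA and to 38.2 to 84.9 in MIA_Acu 1, 2 and 5, but to 663 in MIA_Acu 3, where all 9 were highest. Col2a1, the collagen of cartilage, was at 353 CPM there and at 1.67 to 37.4 elsewhere. The 6 tendon markers summed to 203 CPM in MIA_Acu 3 and to 24.1 to 58.5 elsewhere. Of the 6, 4 were highest in MIA_Acu 3, and Fmod and Thbs4, at 111 and 67.1 CPM there, made up most of the sum. Tnmd, the most tendon-specific of them, was at 9.57 CPM there and at most 1.34 elsewhere. Mkx and Scx went otherwise. Mkx was at its lowest in MIA_Acu 3, at 9.13 CPM, and Scx was at 3.70 CPM there, within its range of 2.76 to 4.82. The 5 adipocyte markers summed to 24.7 CPM there and to 1.09 to 11.9 elsewhere. The 5 erythroid markers summed to 914 CPM there and to 199.6 to 643 elsewhere. In these 4 lists the smallest p-values belonged to Col2a1 and Acan, Tnmd and Kera, Cidec and Adipoq, and Alas2 and Hba-a2, with edgeR adjusted p between 0.139 (Tnmd) and 0.88 (Hba-a2, an alpha globin gene with a near-identical copy whose reads may be split between them). The part of these tissues in the muscle values was not tested.

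Fibroblast markers summed to 642 to 2028 CPM in MIA and 2405 to 5857 in MIA_Acu, with MIA 2 lowest and MIA_Acu 3 highest. All 9 were lowest in MIA 2, but 4 of 9 were highest in MIA_Acu 3, where Col1a1 and Col1a2 reached 1999 and 2530 CPM. Pdgfra, Dcn, Lum and Col3a1 were highest in MIA_Acu 2, which had the least muscle RNA of its group. Col3a1 and Col1a2 had the smallest p of that list (adjusted p = 0.111 and 0.114, edgeR). Smooth muscle and mural markers, among which Des and Tpm2 would also fall, summed to only 291 to 496 CPM, most of it from Rgs5, at 188 to 346 CPM. Single genes varied more, with 8.84-fold for Cnn1 and 16.4 to 39.7 CPM for Acta2. Of the 9, 6 were highest in MIA_Acu 3 and 3 lowest in MIA 2. The genes of that list with the smallest p, Pdgfrb and Kcnj8, had adjusted p of 0.102 and 0.103 (edgeR).

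Spinal cord markers were highest in MIA_Acu 5 (395 CPM) and MIA_Acu 2 (333), libraries with much and with little muscle RNA. The oligodendrocyte gene Mog and the astrocyte transporter Slc1a2 had the smallest p of the spinal cord list, with log2 fold changes of 2.86 (SE 1.26) and 1.82 (SE 0.87). Sensory neuron markers, summed over 8 genes, were at 5301 to 7097 CPM in MIA, highest in MIA 2, and at 4628 to 5564 in MIA_Acu. All 8 had negative log2 fold changes and none was called, beside 0% of all genes. Of the 8, 7 had an unadjusted p under 0.05 (edgeR), beside 10.6% of all genes lower at that level. Avil and Rbfox3 had log2 fold changes of -0.48 (SE 0.11) and -0.38 (SE 0.10, adjusted p = 0.0881 and 0.103, edgeR).

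**Figure D5:**
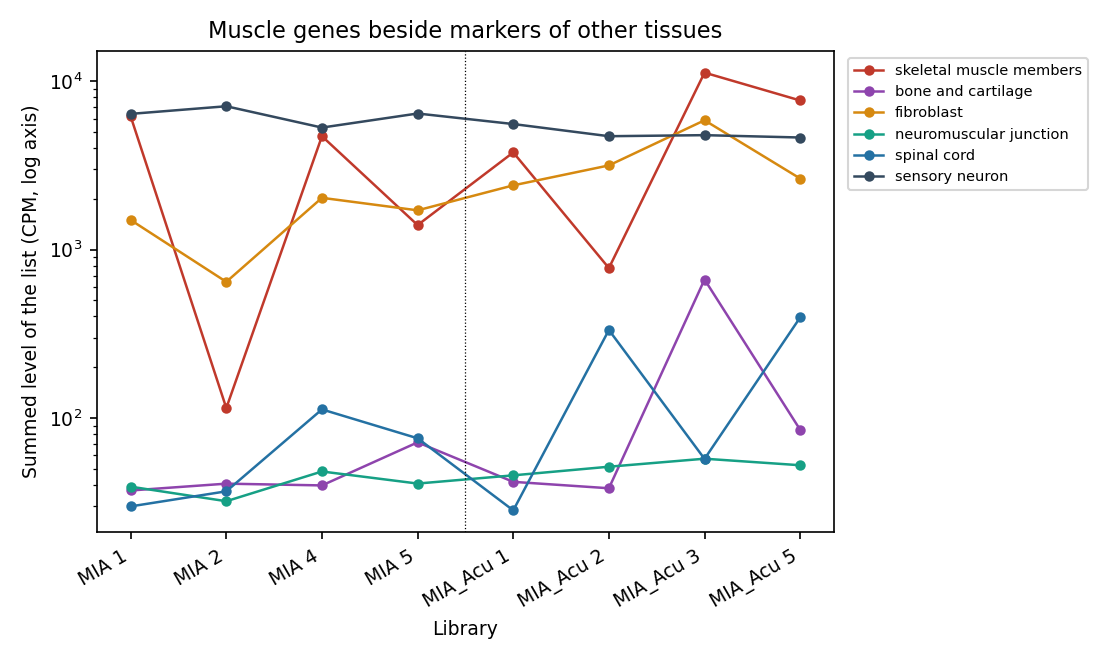
Summed CPM, on a log axis, of the 36 skeletal muscle genes and of markers of bone and cartilage, fibroblasts, the neuromuscular junction, spinal cord and sensory neurons in each library; the dotted line separates the groups. Muscle genes span 114 to 11240 CPM, junction genes 32.0 to 57.2, and bone and cartilage genes stand out in MIA_Acu 3 alone, at 663.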

How the data were processed

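The authors deposited raw counts per Ensembl gene in 1 table, with their gene symbols. Per the submitters' processing notes, FastQC, Trimmomatic and build GRCm39 (mm39) were used. Which aligner, counter, strand setting and annotation were used is not given in the sources used here. Per the labels' protocols, RNA was extracted with TRIzol and libraries were made from poly(A) RNA with the NEBNext Ultra kit. No pair of libraries within a group was alike within sampling noise, with a chi-square per degree of freedom of at least 17.9.

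The test was edgeR 4.0.16 (quasi-likelihood, group as the only term) on the counts, in R 4.3.3, after filterByExpr (minimum count 10, minimum total 15) and TMM, with Benjamini-Hochberg adjustment over all 18971 genes tested. Of the 36 muscle genes 35 passed the filter and Tnnc2 did not. SE were derived from the F statistic. Log2 CPM uses a prior count of 2. Levels per kilobase divide CPM by the longest protein-coding transcript of GENCODE M21 (GRCm38). Promoter sequences are RefSeq's, of GRCm38.p6, matched by symbol. Alternatives were DESeq2 1.42.0, limma 3.58.1 voom, DESeq2 size factors, 2 other filters and other sets of libraries. The test was also tested on simulated data. Changes were planted there only in genes below a limit on variation between libraries, so it may not cover genes as variable as the muscle genes. All 36 genes are named. Of each other list the 2 genes with the smallest p are named, since none was called, and others from the lists were chosen after their values were seen. 1 erythroid marker is not reported here. The genes and lists were chosen with earlier results of these data known.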

Additional observations from a re-analysis of the deposited data

Results flagged for a closer look

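In 4 of 76 sets of 4 libraries screened, 1 library stood apart from the other 3 by more than Dixon's 95% critical value for the gap over the range, and chance gives about 1 in 20. In MIA, log2 CPM of Myl3 was high in MIA 5 (0.913 of the range), and those of Actn2 (0.869) and Myoz2 (0.987) were low in MIA 2. In MIA_Acu, Myh3 was high in MIA_Acu 3 (0.84). Summed muscle level and slow share gave no such library in either group.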

How the results depend on the processing

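DESeq2 size factors and the stricter filter left edgeR's count of called genes at 0. Without a filter it was 6, none of them a muscle gene, and DESeq2's own test called 1753 genes, 7 of them muscle genes. Leaving out 1 library gave 0 to 1340 genes, the most without MIA 4, and no muscle gene. The 6 libraries that match a sample title gave 1963 genes, and exchanging the groups of the other libraries 207. A fit of the 6 with the replicate number as a block gave 1486 genes (7.85%) and 6 muscle genes, all slow isoforms. At an unadjusted p under 0.05 that fit had 21 of the 35 muscle genes, all higher, beside 13.8% of all genes higher. Among the 21 were 7 slow isoforms and 6 of the 12 fast isoforms. Deviations of same-numbered libraries correlated at 0.07, 0.27 and 0.15. Those of unlike-numbered libraries ran from -0.25 to 0.15, and only MIA 1 with MIA_Acu 5 was positive. Each MIA_Acu library correlated best with the MIA library of its own number. MIA 1 correlated better with MIA_Acu 5 than with MIA_Acu 1. Whether the numbers mark pairs was not tested, and the main fit did not use them. The ratio of summed levels stayed within 0.39 to 1.5 (log2) when 1 library was left out and was -0.16 with the exchange. The difference in fast share ran from -4.93 to 1.57 percentage points when 1 library was left out. The causes were not tested.

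Some log2 fold changes turned sign. In the 6 libraries these were Actc1 -0.15 and Hba-a2 -0.71, with the block Hba-a2 -0.72, and with voom Hba-a2 -0.13. Leaving out 1 library gave Actc1 -0.078 to 1.05, Hba-a2 -0.62 to 0.42 and Alas2 -0.838 to 0.0199. Without MIA 2 and MIA_Acu 3, chosen after the data were seen, these were Actc1 -0.48, Neb -0.0069, Myh1 -0.25, Myh4 -0.33, Mybpc2 -0.26, Actn3 -0.30, Ttn -0.16, Myom1 -0.025, Ckm -0.075, Atp2a1 -0.26, Ryr1 -0.17, Hba-a2 -0.68 and 1500015O10Rik -0.00075. With the exchange they were Acta1 -0.093, Actc1 -0.83, Tpm2 -0.11, Neb -0.40, Tnnt1 -1.46, Tnni1 -1.20, Tnni2 -0.12, Tnnc1 -1.34, Myh1 -0.19, Myh2 -0.35, Myh3 -0.35, Myh4 -0.10, Myh7 -1.81, Myl2 -1.45, Myl3 -1.49, Mybpc1 -0.16, Mybpc2 -0.18, Actn2 -0.67, Actn3 -0.014, Myoz2 -0.86, Myot -0.27, Tcap -0.29, Ldb3 -0.19, Des -0.29, Ttn -0.50, Myom1 -0.48, Ckm -0.18, Mb -0.56, Ryr1 -0.41, Csrp3 -0.45, Myom3 -0.91, Casq2 -0.038, Cox7a1 -0.21, Car3 -0.62, Myf6 -0.034, Col1a2 -0.17, Tnmd -1.62, Kera -1.41, Col2a1 -2.91, Acan -2.27, Adipoq -0.51, Hba-a2 -1.04, Ppp1r27 -0.46, Smtnl1 -0.90, Itgb1bp2 -0.21 and 1500015O10Rik -0.20.

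Depth was not the limit for most genes, but Tnnc2 in each library, and most slow isoforms in MIA 1 and MIA 2 rest on few counts (Myh7 4 and 8, Tnnt1 10 and 40, Tnnc1 24 and 37, Myl3 28 and 35). The spread between libraries set the precision: SE of the fast isoforms were 0.91 to 1.15 (log2).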

Other observations

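Outside the lists, the 6 genes whose log2 CPM over the 8 libraries was most like the mean of the 35 tested muscle genes, out of 14091 candidates, were Ppp1r27, Smtnl1, Itgb1bp2, 1500015O10Rik, Hipk3 and Ddit4l (Pearson's r between 0.984 and 0.991, with no test, since they were picked for it). Smtnl1, a contractility regulator, was at 1.86, 0.0521, 2.53 and 1.499 CPM in MIA and at 3.42, 0.978, 20.1 and 5.64 CPM in MIA_Acu. Itgb1bp2, which encodes the integrin-binding protein melusin of striated muscle, was at 4.14, 0.182, 3.01 and 1.40 CPM and at 5.13, 1.2, 11.7 and 5.66 CPM. Hipk3, a kinase gene, ordered the libraries in the same way within a narrow range of 127 to 177 CPM. None of the 6 was called by edgeR, with adjusted p of 0.2 to 0.411.

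Among the 35 muscle genes themselves, likeness to their mean was lowest for Tnnt1 (0.57), Myh7, Myl3, Tnnc1 and Tnni1, all slow isoforms, and highest for Actn2 and Myot (both 0.99), whose genes serve fibres of every type. The slow isoforms Myl2 (0.84) and Myoz2 (0.94) were closer to the mean. That mean includes each gene itself and holds only 7 slow isoforms, so its make-up alone can place slow isoforms low.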
